A study of Homo sapiens with 8 samples.

Results

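The 8 enzyme genes described here supply glutamate, aspartate and proline, with PCK2 and CTH beside them. They were chosen by name, with earlier results of these data known: GLUD1, GOT1, GOT2, GPT2, ALDH18A1, PYCR1, PCK2 and CTH. All 8 are listed in both deposited tables, which hold 13703 genes between them. Polyadenylated RNA came from 2 human osteosarcoma lines: HOS, and 143B, which was derived from HOS. The 4 groups were 143B cells with a guide against NAT10 (143B sgNAT10), 143B controls (143B NC), HOS cells with that guide label (HOS sgNAT10) and HOS controls (HOS NC), with 2 libraries each. NAT10 is the enzyme that acetylates cytidine in RNA. The submitters describe the sgNAT10 cells as knockouts, and the labels do not give the number of guides or clones, what NC carried, or whether libraries of 1 group were grown as separate cultures. The p-values therefore measure the spread between these libraries, which may be technical.

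The carbon and nitrogen of these amino acids pass through a few connected reactions. Glutamate is made in mitochondria from glutamine and exchanges its amino group with keto acids: aminotransferases use it to make aspartate from oxaloacetate and alanine from pyruvate, and glutamate dehydrogenase removes the amino group as ammonia. Proline is built from glutamate by a synthase and a reductase, mitochondrial phosphoenolpyruvate carboxykinase draws oxaloacetate out of the citric acid cycle, and cystathionine gamma-lyase makes cysteine. Proliferating cells need aspartate for nucleotides, and collagen-producing cells such as osteoblasts need much proline.

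GLUD1, GOT1 and ALDH18A1 lie on chromosome 10 of GRCh38, between 87050486 and 99431569. GOT2 and GPT2 lie on chromosome 16, PYCR1 on 17, PCK2 on 14 and CTH on 1, and all 8 are annotated as protein coding. Their longest annotated transcripts run from 1904 bases, for PYCR1, to 4228 bases, for GPT2, and GC content runs from 43.3% for CTH to 61.8% for PYCR1 and 61.6% for PCK2. RefSeq promoter sequences (GRCh38.p14), 250 bases before to 50 bases after the start, matched 6 of the 8 genes by symbol: GLUD1, GOT1, GOT2, ALDH18A1, PCK2 and CTH. The 3 shown here belong to the genes with the 2 largest falls in 143B and to the 1 that rose there. Capitals mark the C/EBP-ATF response element core (TGATGNAA, or TTNCATCA on the opposite strand) and the E-box (CACGTG), the 2 motifs searched on both strands.
PCK2, chr14:24094061-24094360, plus strand: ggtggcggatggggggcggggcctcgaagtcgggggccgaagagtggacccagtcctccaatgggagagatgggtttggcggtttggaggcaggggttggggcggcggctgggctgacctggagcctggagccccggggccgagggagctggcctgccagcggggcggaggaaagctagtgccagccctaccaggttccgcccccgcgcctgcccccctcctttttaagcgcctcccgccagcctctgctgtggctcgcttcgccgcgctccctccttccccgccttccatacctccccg
GOT1, chr10:99430575-99430874, minus strand: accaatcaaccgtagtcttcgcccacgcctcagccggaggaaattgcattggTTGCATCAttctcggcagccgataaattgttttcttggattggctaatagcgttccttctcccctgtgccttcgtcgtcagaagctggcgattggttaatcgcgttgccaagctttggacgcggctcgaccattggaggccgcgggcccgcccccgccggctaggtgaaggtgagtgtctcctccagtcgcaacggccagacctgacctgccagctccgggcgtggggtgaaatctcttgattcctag
ALDH18A1, chr10:95656662-95656961, minus strand: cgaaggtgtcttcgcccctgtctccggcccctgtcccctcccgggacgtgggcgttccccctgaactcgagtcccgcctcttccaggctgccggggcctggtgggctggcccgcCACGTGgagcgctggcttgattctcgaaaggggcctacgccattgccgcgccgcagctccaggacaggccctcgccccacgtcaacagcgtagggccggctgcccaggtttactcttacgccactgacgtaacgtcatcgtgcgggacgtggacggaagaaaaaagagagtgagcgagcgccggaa
The response element core was found in 1 of the 6 promoters, that of GOT1, on the opposite strand, and the E-box in 1, that of ALDH18A1. Among all 35116 promoters of this length, 3.62% hold the response element core and 7.26% the E-box, with 1.88% and 9.52% among the 13667 promoters of genes listed in both lines. The matched letters do not overlap each other, and they describe the sequence alone.

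The FPKM tables (fragments per kilobase of transcript, normalized to each library's mapped fragments) were normalized and filtered separately for each line, and give no counts, so depth is unknown. The sum of listed FPKM ranged from 484793 to 798137. Replicates of a group correlated at 0.979 to 0.997 on log2(FPKM + 1), less closely in 143B than in HOS. NAT10 had 9.05 and 7.19 FPKM in 143B sgNAT10, against 16.1 and 19.9 FPKM in 143B NC. HOS sgNAT10 had 21.1 and 19.1 FPKM of NAT10, against 14.9 and 16.2 FPKM in HOS NC, a rise of 0.35 (adjusted p = 0.0054) that became -0.048 after length and GC correction and whose call was lost under 4 other alternatives, so the HOS label is not borne out by a lower NAT10 RNA level, and every HOS direction is between libraries as labelled. Of 12 osteoblast-lineage markers 8 were listed in 143B, with RUNX2, ALPL and COL1A1 among them, and 9 in HOS. BGLAP, IBSP and SP7 had no value to analyse in either line. The markers summed to 23.2 to 31.8 FPKM in 143B sgNAT10 and 66.8 to 96.0 FPKM in 143B NC, and to 818 to 889 FPKM in HOS sgNAT10 and 674 to 764 FPKM in HOS NC. Of the 6 blood markers LYZ alone was listed, at 6.89 to 7.33 FPKM in 143B sgNAT10 and 0.69 to 1.30 FPKM in 143B NC. Epithelial markers were listed for EPCAM in 143B, at 1.99 to 3.44 FPKM in sgNAT10 and 0.87 to 1.88 FPKM in NC. No endothelial marker was listed in 143B. In HOS, LYZ had 0.86 to 1.14 FPKM in sgNAT10 and 0.92 to 1.19 FPKM in NC. EPCAM and ESRP1 summed to 19.5 to 21.4 FPKM in HOS sgNAT10 and 16 to 18.8 FPKM in HOS NC. The endothelial markers PECAM1, CDH5 and TEK summed to 2.2 to 2.34 FPKM in HOS sgNAT10 and 2.14 to 2.2 FPKM in HOS NC. The part of these shifts in the results below was not tested.

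In 143B, 4 of the 8 enzyme genes fell and 1 rose in sgNAT10 (limma on log2(FPKM + 1), adjusted p under 0.05 over all genes tested). PCK2 fell most, to 0.172 of its control mean, followed by GOT1 (0.341), GPT2 (0.456) and PYCR1 (0.497). ALDH18A1 rose 1.996-fold. GLUD1, GOT2 and CTH did not pass the test. Of all 11419 genes tested in 143B, 38.3% were called, 25.4% lower and 12.9% higher. Rescaled to a common sum, with 3736 of all genes lower and 896 higher, 5 of the 8 fell and 0 rose. Under median-ratio scaling, with 2541 of all genes lower and 2361 higher, 2 of the 8 fell and 1 rose. Without 143B sgNAT10 replicate 2 only 2 were called, and without 143B NC replicate 1 only 3, all of them lower. The median change of the 8 was -0.77, against -0.25 for all genes tested. In HOS, 7 of the 8 rose and PCK2 fell, where 68.5% of 11957 genes were called, 45.5% higher and 23.0% lower, so that being called was the common state of a gene there. Rescaled to a common sum 7 of the 8 rose and 0 fell, where 7075 of all genes rose and 1703 fell. Under median-ratio scaling 6 of the 8 rose and 1 fell, where 3762 of all genes rose and 4038 fell. With a spread shared by all 8 libraries GPT2 alone of the 8 was called in HOS. In that setting 1562 of 10655 genes were higher in HOS and 302 lower. The median change of the 8 in HOS was 0.54, against 0.19 for all genes tested, and under median-ratio scaling the median of all genes was -0.017 in 143B and -0.0079 in HOS.

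**Figure D1:**
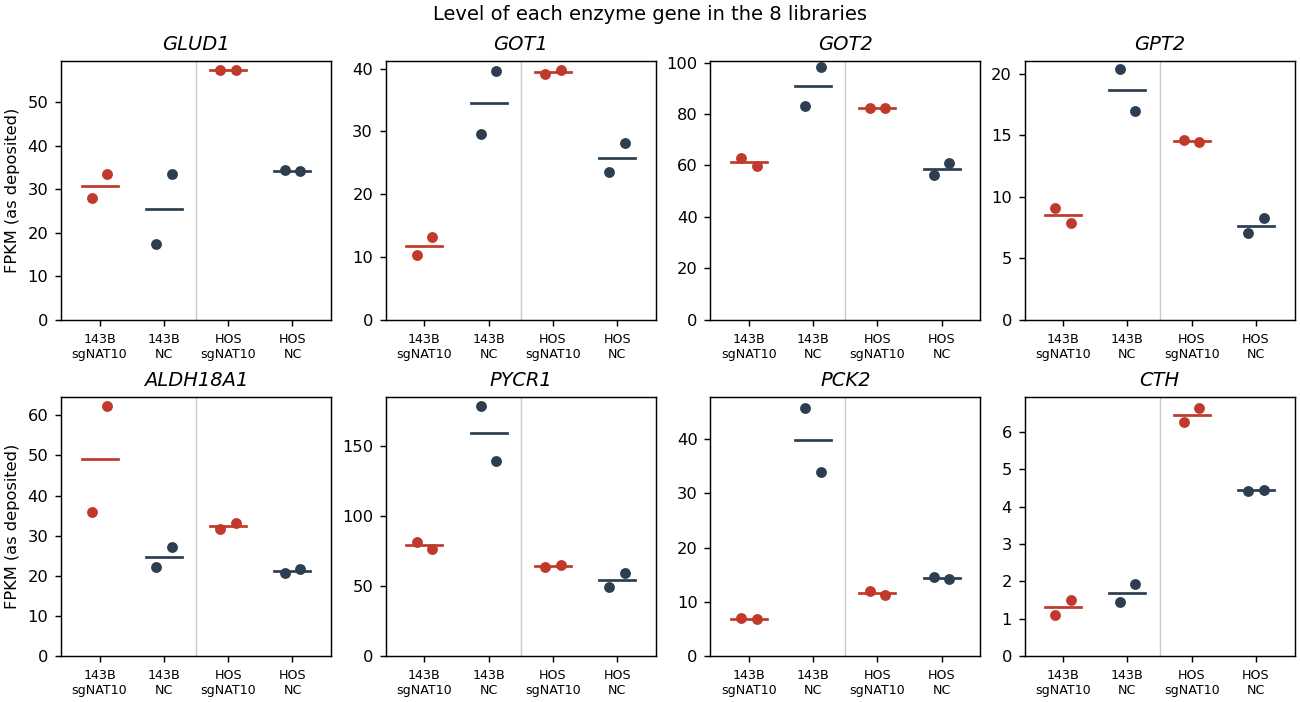
FPKM of each enzyme gene in every library (points; the y axes start at 0) with group means (lines), sgNAT10 left of NC within each line. GOT1, GOT2, GPT2, PYCR1 and PCK2 were lower in both 143B sgNAT10 libraries than in both 143B NC libraries, and ALDH18A1 was higher. All 8 genes separated by label in HOS, where 68.5% of all genes tested were called. The share of all genes that separate by label is not given here.

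Of the aspartate aminotransferases, GOT1 fell in 143B sgNAT10 and both rose in HOS sgNAT10. GOT1, the cytosolic enzyme of the malate-aspartate shuttle, stood at 10.4 and 13.2 FPKM in 143B sgNAT10, against 29.5 and 39.5 FPKM in 143B NC. The groups did not overlap, and GOT1 fell by 1.47 on the log2 scale (SE 0.29, adjusted p = 0.0057), a call kept under all 16 alternatives of that comparison. In bulk RNA, fewer expressing cells and less RNA per cell cannot be told apart. In HOS, GOT1 stood at 39.2 and 39.7 FPKM in sgNAT10, against 23.5 and 28.2 FPKM in NC, a rise of 0.60 (SE 0.10, adjusted p = 6.7e-05). The change in 143B minus that in HOS was -2.07 for GOT1 (SE 0.30, adjusted p = 0.00067). After length and GC correction the HOS rise was 0.30 and the difference -1.24, both still called.

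GOT2, the mitochondrial partner of GOT1, moved less in 143B. Its level was 62.8 and 59.6 FPKM in 143B sgNAT10, against 83.1 and 98.5 FPKM in 143B NC. The libraries separated by label, but the change of -0.56 (SE 0.24) did not pass the test (adjusted p = 0.095). It passed with the replicate number as a block (0.0028), rescaled to a common sum (0.020) and with a spread shared by all 8 libraries (0.019). In HOS, GOT2 stood at 82.35 and 82.47 FPKM in sgNAT10, against 56.2 and 60.9 FPKM in NC, and it rose by 0.49 (SE 0.09, adjusted p = 0.00012). The change in 143B minus that in HOS was -1.04 (SE 0.23, adjusted p = 0.0054), and -0.54 under median-ratio scaling, which ended the call (adjusted p = 0.17). A ratio taken within a library does not depend on its scaling. GOT2 over GOT1 was 6.03 and 4.53 in 143B sgNAT10, against 2.81 and 2.49 in 143B NC, and 2.10 and 2.08 in HOS sgNAT10, against 2.39 and 2.16 in HOS NC. The mitochondrial form thus weighed more against the cytosolic form in both 143B sgNAT10 libraries, while the HOS ratios all lay between 2.08 and 2.39.

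GPT2 and GLUD1, both mitochondrial and both linking glutamate to alpha-ketoglutarate, differed from each other in 143B. GPT2, alanine aminotransferase, stood at 9.11 and 7.90 FPKM in 143B sgNAT10, against 20.4 and 16.9 FPKM in 143B NC, and fell by 1.05 (SE 0.30, adjusted p = 0.024). HOS sgNAT10 libraries had 14.6 and 14.4 FPKM of GPT2, against 7.05 and 8.25 FPKM in HOS NC. That HOS rise, 0.85 (SE 0.11, adjusted p = 4.1e-06), was followed by that of GLUD1, and GLUD1 or CTH lay above GPT2 with a pseudocount of 5, under quantile normalization and after length and GC correction. The change in 143B minus that in HOS was -1.89 (SE 0.28, adjusted p = 0.00074) for GPT2. The 143B call was lost without 143B sgNAT10 replicate 1 (adjusted p = 0.13), without 143B sgNAT10 replicate 2 (0.19) and without 143B NC replicate 1 (0.066), and with median-ratio scaling, quantile normalization or length and GC correction. Over the 16 alternatives of that comparison the adjusted p ran from 8.3e-07 to 0.19, while the HOS call and the difference between lines were kept under every alternative run.

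GLUD1, glutamate dehydrogenase, stood at 28.1 and 33.6 FPKM in 143B sgNAT10, against 17.5 and 33.6 FPKM in 143B NC. The control libraries were far apart and the groups overlapped, with a change of 0.33 (SE 0.34, adjusted p = 0.48). The sign turned without 143B NC replicate 1, to -0.13. In HOS, GLUD1 stood at 57.45 and 57.52 FPKM in sgNAT10, against 34.4 and 34.2 FPKM in NC, and it rose by 0.73 (SE 0.09, adjusted p = 2.5e-06). The difference between lines was -0.40 (95% interval -1.27 to 0.47, adjusted p = 0.42), and without 143B NC replicate 1 it was -0.85 (adjusted p = 0.014). Its sign turned under median-ratio scaling (0.097) and without 143B NC replicate 2 (0.051), neither of them called. GLUD1 has a near-identical copy, GLUD2, listed in HOS alone at 0.33 to 0.70 FPKM, and 5 named pseudogenes, and GOT2 has 4, so that reads could have been split. SHLD2 overlaps GLUD1 on the opposite strand, at 2.58 to 7.16 FPKM in 143B and 18.0 to 31.1 FPKM in HOS. The sources used here do not say whether counting used strand.

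The 2 proline genes moved in opposite directions in 143B. ALDH18A1, which catalyses the first committed step from glutamate, stood at 35.8 and 62.4 FPKM in 143B sgNAT10, against 22.2 and 27.1 FPKM in 143B NC. It rose by 0.92 (SE 0.31, adjusted p = 0.046), with the sgNAT10 libraries far apart but both above the controls. Without 143B sgNAT10 replicate 2 the change was 0.53 (adjusted p = 0.41), and without 143B NC replicate 1 it was 0.78 (0.066). The call was lost under 6 of 16 alternatives, the others being a pseudocount of 5 (0.056), no intensity trend (0.066), robust moderation (0.051) and rescaling to a common sum (0.20). The adjusted p over them ran from 1.3e-06 to 0.41, and after length and GC correction the change was 1.27. In HOS, ALDH18A1 stood at 31.6 and 33.2 FPKM in sgNAT10, against 20.8 and 21.6 FPKM in NC, a rise of 0.59 (SE 0.09, adjusted p = 3.7e-05). Its change in 143B minus that in HOS was 0.33 (95% interval -0.48 to 1.15, adjusted p = 0.48), with -0.061 without 143B sgNAT10 replicate 2, -0.20 after rescaling to a common sum, and 0.83 (adjusted p = 0.045) under median-ratio scaling.

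PYCR1, the mitochondrial reductase that completes proline, stood at 81.0 and 76.4 FPKM in 143B sgNAT10, against 178 and 139 FPKM in 143B NC. It fell by 0.99 (SE 0.24, adjusted p = 0.013). The call was lost without 143B sgNAT10 replicate 2 (adjusted p = 0.064), under median-ratio scaling (0.19) and after length and GC correction (log2 -0.33, adjusted p = 0.16), with a range of 5.6e-08 to 0.19 over its 16 alternatives. In HOS, PYCR1 stood at 63.2 and 64.7 FPKM in sgNAT10, against 49.5 and 58.9 FPKM in NC. That rise of 0.24 (SE 0.10, adjusted p = 0.036) lay 0.052 above the median of all genes, and the call was lost under 8 of 16 alternatives, among them leaving out HOS sgNAT10 replicate 1 (0.18), HOS sgNAT10 replicate 2 (0.24) or HOS NC replicate 1 (0.14). The difference between lines was -1.23 (SE 0.26, adjusted p = 0.0040), and -0.73 (adjusted p = 0.14) under median-ratio scaling.

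The ratio of the 2 proline genes within a library separated the labels in both lines. PYCR1 over ALDH18A1 was 2.26 and 1.22 in 143B sgNAT10, against 8.02 and 5.14 in 143B NC. In HOS the ratio was 2 and 1.95 in sgNAT10, against 2.38 and 2.73 in NC. Both 143B sgNAT10 libraries thus lay within or below the range of HOS values, while both 143B NC libraries lay above them.

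PCK2, mitochondrial phosphoenolpyruvate carboxykinase, was the one gene of the 8 that was called lower in both lines. Its level was 6.96 and 6.74 FPKM in 143B sgNAT10, against 45.8 and 34.0 FPKM in 143B NC, and fell by 2.37 (SE 0.29, 95% interval -3.03 to -1.70, adjusted p = 0.0013). Only 1.31% of the genes tested in 143B had a lower change, and the call was kept under all 16 alternatives of that comparison, which ran from -2.68 to -1.60. In HOS, PCK2 stood at 12.1 and 11.2 FPKM in sgNAT10, against 14.6 and 14.3 FPKM in NC. The libraries did not overlap and the change was -0.29 (SE 0.10, adjusted p = 0.018). That call was lost without HOS sgNAT10 replicate 1 (adjusted p = 0.11), without HOS sgNAT10 replicate 2 (0.26) and after rescaling to a common sum (log2 -0.093, adjusted p = 0.46), with a range of 0.00014 to 0.46 over its 16 alternatives. The fall was larger in 143B, by -2.08 (SE 0.29, adjusted p = 0.00052), under every alternative run. PCK2 over GOT2 was 0.111 and 0.113 in 143B sgNAT10, against 0.551 and 0.345 in 143B NC, and 0.147 and 0.135 in HOS sgNAT10, against 0.259 and 0.234 in HOS NC. The ratio was thus lower under the sgNAT10 label in both lines. GOT2 was not called in 143B. In HOS it was called higher, by 0.49, which itself lowers the ratio, beside the change of -0.29 in PCK2. NRL overlaps PCK2 on the opposite strand, at 0.43 to 1.13 FPKM in 143B.

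CTH, cystathionine gamma-lyase, was the lowest of the 8 in every group. Its level was 1.1 and 1.5 FPKM in 143B sgNAT10, against 1.45 and 1.94 FPKM in 143B NC, close to the filter of 1 FPKM, and the groups overlapped (log2 -0.23, SE 0.25, adjusted p = 0.50). In HOS, CTH stood at 6.28 and 6.66 FPKM in sgNAT10, against 4.43 and 4.45 FPKM in NC, and it rose by 0.46 (SE 0.11, adjusted p = 0.0013), a call lost under quantile normalization (log2 0.17, adjusted p = 0.18; range over 16 alternatives 7.4e-06 to 0.18). The difference between lines, -0.69 (SE 0.25, adjusted p = 0.047), was lost under 11 of 18 alternatives, including the removal of 143B sgNAT10 replicate 1 (adjusted p = 0.14), 143B NC replicate 2 (0.054) or any 1 of the 4 HOS libraries (0.13 to 0.16). Its adjusted p over those alternatives ran from 0.00094 to 0.35.

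**Figure D2:**
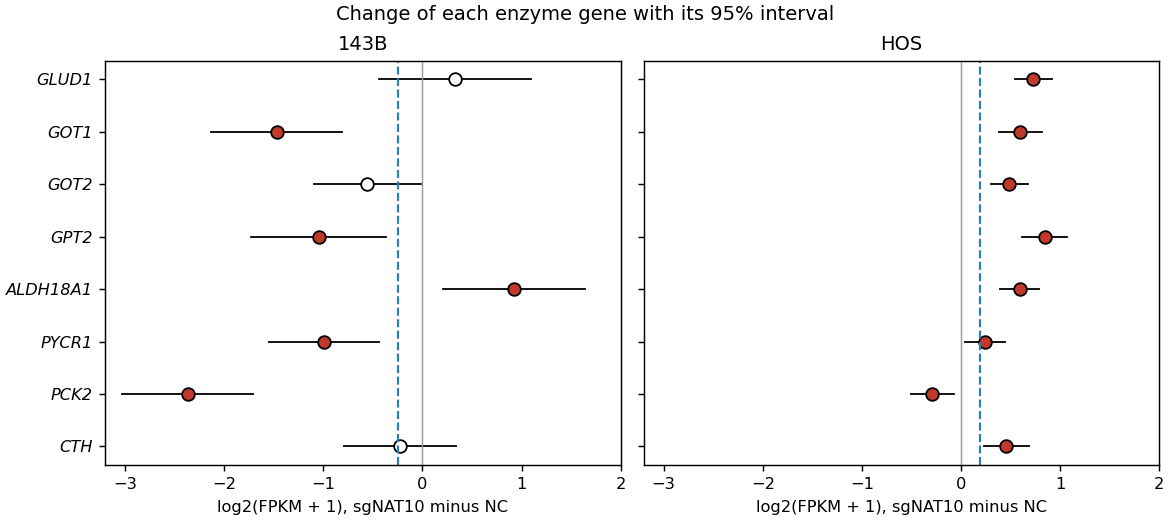
Change of each enzyme gene, sgNAT10 minus NC on the log2(FPKM + 1) scale (points, filled where adjusted p was under 0.05), with 95% intervals (lines) and the median change of all genes tested (dashed). In 143B PCK2 stood at -2.37 and ALDH18A1 at 0.92, and in HOS all but PCK2 lay above 0.

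The change in 143B was lower than that in HOS for 6 of the 8 genes, GOT1, GOT2, GPT2, PYCR1, PCK2 and CTH, and higher for 0 (limma; 0 also at an unadjusted p under 0.05). Under median-ratio scaling it was lower for 3 of the 8 and higher for 1, ALDH18A1. In that setting it was lower for 2709 of all genes and higher for 2662. Of 10655 genes tested in both lines, 49.1% differed, 36.2% with the lower change in 143B and 12.9% with the higher. The median difference was -1.14 for the 8 genes, against -0.44 for all genes. GOT1, GPT2 and PYCR1 were called in opposite directions in the lines, ALDH18A1 was called higher in both, and PCK2 lower in both. The share of all genes called in opposite directions, or in the same direction, in the lines is not given here. After length and GC correction PYCR1 was called in neither line (adjusted p = 0.16 in 143B and 0.38 in HOS). GPT2 was then not called in 143B (0.12).

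The genes that fell in 143B were those richer in GC. All genes tested showed such an order: their median change in 143B was 0.14 below 45% GC (3930 genes), -0.12 from 45 to 50%, -0.52 from 50 to 55%, -0.70 from 55 to 60% and -0.78 at 60% and over (1855 genes). PCK2 (61.6% GC) and GOT1 (52.8%) lay far below the medians of their ranges, PYCR1 (61.8%) slightly below, and ALDH18A1 (49.3%) well above. In HOS the medians were -0.086 below 45% GC, 0.24 from 45 to 50% and 0.31 to 0.38 above that. With each library corrected for transcript length and GC, the 143B changes were -1.60 for PCK2 (adjusted p = 9.2e-06), -0.94 for GOT1 (0.00089) and 1.27 for ALDH18A1 (0.00021), while GPT2 (-0.37, adjusted p = 0.12) and PYCR1 were not called. The HOS changes after correction were 0.60 for GLUD1, 0.63 for CTH, 0.38 for GPT2 and -0.57 for PCK2, all called, and 0.054 for PYCR1 (adjusted p = 0.38). GOT1, GOT2 and ALDH18A1 were also called there, at 0.30, 0.29 and 0.32. The corrected differences between lines were -1.24 for GOT1, -1.03 for PCK2, -1.06 for CTH, -0.75 for GPT2 and -0.50 for GOT2, all called. That of PYCR1 was -0.39 (adjusted p = 0.052), and ALDH18A1 differed by 0.95 (adjusted p = 0.0074).

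**Figure D3:**
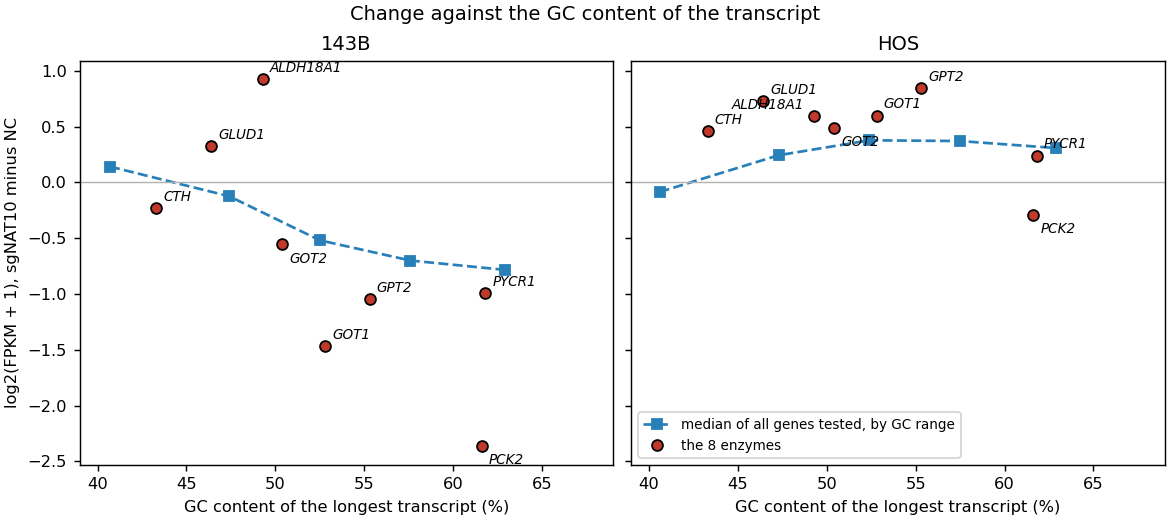
Change of each enzyme gene (circles), sgNAT10 minus NC on the log2(FPKM + 1) scale, against the GC content of its longest transcript, with the median of all genes tested in 5 ranges of GC (squares). In 143B the medians ran from 0.14 to -0.78 with rising GC, and PCK2 and GOT1 lay below them and ALDH18A1 above.

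Control levels differed between the lines for several of the genes, as values set side by side from tables normalized apart, with no test. PYCR1 averaged 159 ± 27.5 FPKM in 143B NC and 54.2 ± 6.63 FPKM in HOS NC (SD, n = 2), 2.93-fold higher in 143B. PCK2 averaged 39.9 ± 8.37 FPKM in 143B NC and 14.4 ± 0.212 FPKM in HOS NC, and GPT2 18.6 ± 2.40 FPKM in 143B NC and 7.65 ± 0.849 FPKM in HOS NC. These 3 were thus 2.44-fold to 2.93-fold higher in 143B. CTH went the other way, at 1.70 ± 0.346 FPKM in 143B NC and 4.44 ± 0.014 FPKM in HOS NC. GOT2 averaged 90.8 ± 10.9 FPKM in 143B NC and 58.6 ± 3.33 FPKM in HOS NC. For GLUD1, GOT1 and ALDH18A1 the control means lay within 1.34-fold of each other.

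By rank among the 11807 genes listed in both tables, PCK2 lay above 83.7% and 79% of genes in the 143B NC libraries and above 60.2% and 59.7% in the HOS NC libraries. In sgNAT10 libraries it lay above 57.4% and 52.7% of genes in 143B and above 49.8% and 47.9% in HOS, closer to each other than in the controls. In 143B NC the order of levels was PYCR1, GOT2, PCK2, GOT1, GLUD1, ALDH18A1, GPT2 and CTH, in which PCK2, GOT1, GLUD1 and ALDH18A1 were each within the spread of a neighbour. In HOS NC it was GOT2, PYCR1, GLUD1, GOT1, ALDH18A1, PCK2, GPT2 and CTH, and the first 2 did not differ beyond their spread. In 143B sgNAT10 the mean of ALDH18A1 came next after those of PYCR1 and GOT2, within its spread of GOT2, and PCK2 stood above CTH alone. FPKM is per length of transcript, so these orders compare genes on a per-length scale.

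Of the pathway genes around these enzymes, 120 in 5 lists, 106 were tested in 143B and 36 fell and 6 rose, where 25.4% of all genes fell and 12.9% rose. In HOS 107 were tested, with 46 higher and 31 lower, where 45.5% of all genes were higher and 23.0% lower. The counts of each list below stand against these shares. Their median change was -0.60 in 143B and 0.10 in HOS, beside -0.25 and 0.19 for all genes tested. Under median-ratio scaling the HOS split was 29 higher and 41 lower, and rescaled to a common sum it was 63 and 17. After length and GC correction the 143B split was 50 lower and 17 higher. Without 143B sgNAT10 replicate 1, 20 fell and 5 rose in 143B.

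Genes of glutamate and glutamine use fell in 5 of 17 cases and rose in 1 in 143B, near the 25.4% lower of all genes. The count was 3 lower without 143B sgNAT10 replicate 1 and 9 without 143B NC replicate 1, and after length and GC correction 8 were lower and 4 higher. GFPT2, which puts glutamine nitrogen into hexosamines, stood at 5.99 and 6.55 FPKM in 143B sgNAT10, against 30.6 and 41.4 FPKM in 143B NC (log2 -2.33, adjusted p = 0.0015). BCAT1, the cytosolic branched-chain aminotransferase, was the one that rose, with 24.6 and 32.8 FPKM in sgNAT10, against 3.70 and 6.84 FPKM in NC (log2 2.28, adjusted p = 0.0026). In HOS 9 of 18 rose and 1 fell, with 8 and 6 under median-ratio scaling. SLC25A22, a mitochondrial glutamate carrier, stood at 17.9 and 17.5 FPKM in HOS sgNAT10, against 8.43 and 10.6 FPKM in HOS NC (log2 0.84, adjusted p = 6.4e-06). It was called lower in 143B (log2 -1.93, adjusted p = 0.0021). GFPT2 was called higher in HOS (log2 0.62, adjusted p = 5.0e-05), and BCAT1 was not called there (log2 -0.23, adjusted p = 0.056).

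For aspartate and the malate shuttle, 6 of 20 fell and 2 rose in 143B, near the shares of 25.4% and 12.9% over all genes. Without 143B sgNAT10 replicate 2 the count was 3 lower, without 143B sgNAT10 replicate 1 it was 4 and without 143B NC replicate 1 it was 9, and 10 were lower and 3 higher after length and GC correction. MDH2, the mitochondrial malate dehydrogenase that acts beside GOT2, stood at 60.7 and 55.4 FPKM in 143B sgNAT10, against 285 and 272 FPKM in 143B NC (log2 -2.24, adjusted p = 0.00098). In HOS, MDH2 rose (log2 0.45, adjusted p = 0.00025). DARS, the cytosolic aspartyl-tRNA synthetase, also moved in opposite directions: it rose in 143B (log2 2.31, adjusted p = 0.0017) and fell in HOS (log2 -0.79, adjusted p = 4.0e-06). ADSL and CAD of this list were likewise called in opposite directions in the lines. In HOS 8 of 20 rose and 7 fell, with 2 and 9 under median-ratio scaling and 3 and 6 without HOS sgNAT10 replicate 1. ASNS, which makes asparagine from aspartate, fell furthest there, at 35.8 and 37.9 FPKM in HOS sgNAT10, against 88.0 and 86.1 FPKM in HOS NC (log2 -1.22, adjusted p = 1.4e-08). It was called lower in 143B as well (log2 -1.88, adjusted p = 0.0022).

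In the proline and ornithine list 7 of 18 fell and 1 rose in 143B, and 10 rose and 4 fell in HOS (5 and 4 under median-ratio scaling), beside 25.4% lower and 12.9% higher over all genes in 143B and 45.5% higher and 23.0% lower in HOS. Only 4 fell in 143B without 143B sgNAT10 replicate 1, and with either HOS sgNAT10 library left out 7 rose and 1 fell in HOS. P4HA2, a collagen prolyl hydroxylase subunit, stood at 2.12 and 2.18 FPKM in 143B sgNAT10, against 11.6 and 13.5 FPKM in 143B NC (log2 -2.10, adjusted p = 0.0027). PEPD, which frees proline from dipeptides, fell by 1.99 (adjusted p = 0.0017). PEPD was called higher in HOS (log2 0.37, adjusted p = 0.0022), and P4HA2 was called lower there as well (log2 -0.38, adjusted p = 0.0035). In HOS, AZIN1, the antizyme inhibitor that stabilizes ornithine decarboxylase, rose (log2 1.30, adjusted p = 1.2e-08), while EPRS, the glutamyl-prolyl-tRNA synthetase, fell (log2 -0.90, adjusted p = 2.6e-07).

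The list of phosphoenolpyruvate, pyruvate and citric acid cycle genes had 13 of 30 lower and 0 higher in 143B, and 15 lower and 8 higher in HOS (17 and 6 under median-ratio scaling; 10 and 13 after rescaling to a common sum), beside 25.4% lower over all genes in 143B and 23.0% in HOS. The 143B count was 7 lower without 143B sgNAT10 replicate 1, and after length and GC correction 17. SDHB, the iron-sulphur subunit of succinate dehydrogenase, stood at 17.7 and 21.7 FPKM in 143B sgNAT10, against 93.8 and 118 FPKM in 143B NC (log2 -2.37, adjusted p = 0.0010). At an unadjusted p under 0.05, 0 genes of the list were higher in 143B by limma, while 2 were called higher under quantile normalization and 1 was called higher after length and GC correction. In HOS, PDHB, a pyruvate dehydrogenase subunit, fell (log2 -0.69, adjusted p = 3.5e-06) and ACLY, which makes acetyl-CoA from citrate, rose (log2 0.73, adjusted p = 2.3e-06).

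For transsulfuration, cysteine and glutathione, 5 of 21 fell and 2 rose in 143B, and 11 rose and 4 fell in HOS (8 and 5 under median-ratio scaling), where 25.4% of all genes fell in 143B and 45.5% rose in HOS. Without 143B sgNAT10 replicate 1, 2 fell and 1 rose in 143B, without 143B sgNAT10 replicate 2, 3 fell and 1 rose, and after length and GC correction 6 fell and 6 rose. With either HOS sgNAT10 library left out, 1 fell in HOS. SQOR, which oxidizes sulphide, stood at 0.29 and 0.44 FPKM in 143B sgNAT10, against 4.40 and 7.76 FPKM in 143B NC (log2 -2.34, adjusted p = 0.0017). GCLM, the modifier subunit of glutathione synthesis, rose there, with 21.6 and 26.4 FPKM in sgNAT10, against 4.74 and 7.56 FPKM in NC (log2 1.83, adjusted p = 0.0040). In HOS, glutathione reductase, GSR, rose by 0.84 (adjusted p = 1.5e-06) and AHCY, which makes homocysteine, by 0.79 (adjusted p = 9.2e-07). AHCY was called lower in 143B (log2 -0.81, adjusted p = 0.048), and GSR was not called there (log2 -0.69, adjusted p = 0.095). SQOR was called lower in HOS as well (log2 -0.35, adjusted p = 0.014), and GCLM higher (log2 0.46, adjusted p = 0.00091).

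**Figure D4:**
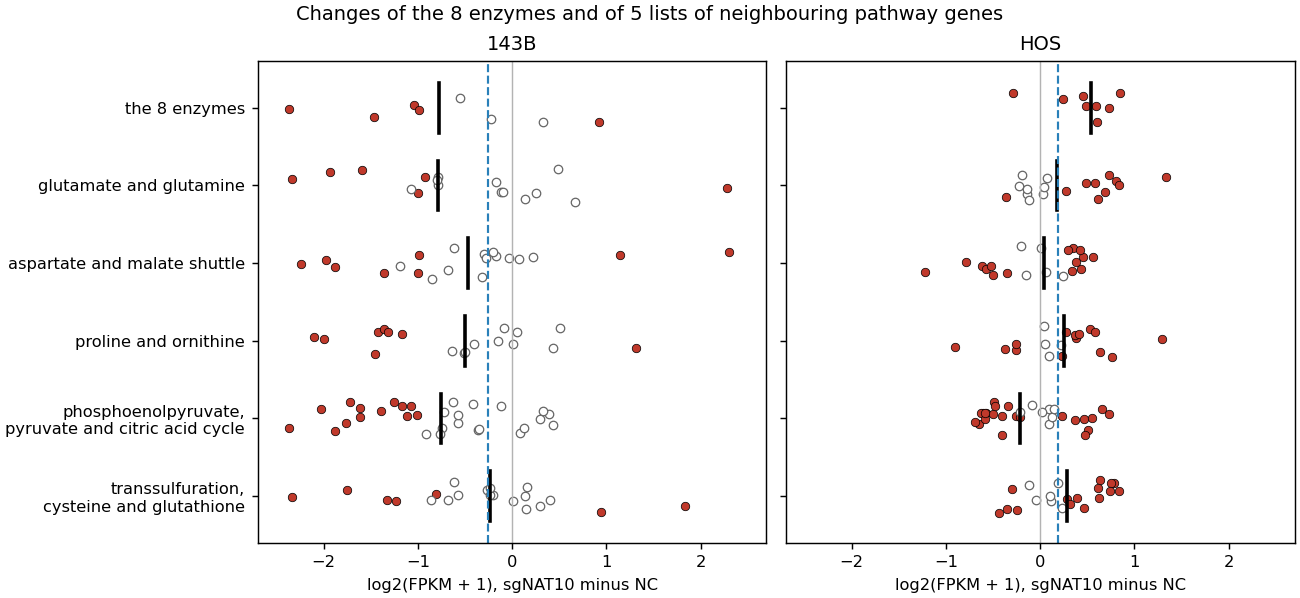
Changes, sgNAT10 minus NC on the log2(FPKM + 1) scale, of the 8 enzymes and of the genes of 5 pathway lists (points, filled where adjusted p was under 0.05; vertical position within a row has no meaning), with the median of each row (bars) and of all genes tested (dashed). In 143B the row medians ran from -0.78 to -0.24, and in HOS from -0.22 to 0.54, the last being that of the 8 enzymes.

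The 5 genes most like the 8 enzymes, by Pearson r to the mean of their scaled profiles over the 8 libraries, each centred within its line, were LTO1 (r = 0.998), POFUT1 (0.998), AFAP1L1 (0.997), FOXF2 (0.996) and SPPL3 (0.995). These are descriptions, since the libraries share their groups and only 2 lines are covered. LTO1 had 4.84 and 5.71 FPKM in 143B sgNAT10, against 8.84 and 10.8 FPKM in 143B NC, and 17.0 and 16.7 FPKM in HOS sgNAT10, against 8.80 and 9.50 FPKM in HOS NC. Within the 8, GOT2 (r = 0.972), CTH (0.928), GOT1 (0.924) and GPT2 (0.912) lay closest to the mean profile, and ALDH18A1 (-0.074) farthest from it. Each of the 8 is part of that mean, so their r values do not compare with those of the 5 genes.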

How the data were processed

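Libraries of polyadenylated RNA followed a BGISeq-500 protocol, per the labels. The authors deposited FPKM values, 1 table per line, in which each listed gene reaches at least 0.51 FPKM in 2 or more libraries. Bowtie2, RSEM, DESeq2 and GRCh38 are named, without roles, per the submitters' processing notes. The annotation version is not stated in these sources. Depth is unknown, so no counting interval is given.

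Genes that reached 1 FPKM in 2 or more of a line's 4 libraries entered the test as log2(FPKM + 1) with limma 3.58.1 in R 4.3.3, using moderated two-sided tests with an intensity trend. P-values were adjusted by the Benjamini-Hochberg method over all genes tested, at a threshold of 0.05. Each line was fitted separately as sgNAT10 minus NC. The difference between lines came from 1 fit of 4 group means. Fold changes on this scale understate the changes of low genes. With 2 libraries against 2, an exact permutation test cannot go below p = 0.33, so the tests rest on spread pooled across genes. The fits were also run on simulated data. That outcome is not given here, so it lends no weight to the calls.

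The genes and lists were chosen with earlier results of these data known. Named list genes are, for each list and line, the 2 called genes with the largest absolute change whose libraries did not overlap by label. Some genes that this rule names are not reported here. The ratios and the GC ranges were chosen after their values were seen. Genes most alike needed a mean of at least 5 FPKM. Positions, lengths and GC content came from GENCODE 29 on GRCh38, which matched 97.9% of the 143B genes and 98.0% of the HOS genes by name, and promoters from RefSeq. Alternatives changed the pseudocount (0.1 or 5), the filter (none, or 5 FPKM), the scaling (common sum, median-ratio or quantile), the trend and the moderation (robust), or added a replicate block, a shared spread, a length and GC correction (splines with 4 degrees of freedom, which recentres each library), and leaving out each library.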

Additional observations from a re-analysis of the deposited data

Results flagged for a closer look

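The change under the sgNAT10 label differed between the lines, by the test of the difference itself in limma, for 6 of the 8 enzyme genes, where 49.1% of all genes tested differed. On the log2(FPKM + 1) scale, the change in 143B minus that in HOS was -2.08 for PCK2, -2.07 for GOT1, -1.89 for GPT2, -1.23 for PYCR1, -1.04 for GOT2 and -0.69 for CTH, beside a median of -0.44 over all genes. It was -1.41 for NAT10, the gene the guide is labelled for, whose RNA was lower under the label in 143B and higher in HOS. After length and GC correction the difference for NAT10 was -0.51 and its HOS change turned to -0.048. The HOS call was also lost under median-ratio scaling (adjusted p = 0.26), quantile normalization (0.090), a shared spread (0.23) and without HOS sgNAT10 replicate 1 (0.18). The 143B call was lost under median-ratio scaling (0.060) and without sgNAT10 replicate 1 (0.11), sgNAT10 replicate 2 (0.22) or NC replicate 2 (0.064). With the same correction the differences were -1.03 for PCK2, -1.24 for GOT1, -0.75 for GPT2, -0.39 for PYCR1 (no longer called, adjusted p = 0.052), -0.50 for GOT2 and -1.06 for CTH.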

How the results depend on the processing

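PCK2 and GOT1 in 143B, GPT2 in HOS, and the differences between lines of GOT1, GPT2 and PCK2 kept direction and call under every alternative run. With 5 enzymes called in 143B, the count was 3 under median-ratio scaling and 3 after length and GC correction, and 2 to 5 when each library was left out. Rescaled to a common sum it was 5, all lower. Leave-one-out counts in 143B ran from 1995 to 5067 over all genes and from 25 to 53 over the other pathway genes. In HOS they ran from 6 to 8 for the enzymes, 6099 to 8872 for all genes and 52 to 87 for pathway genes. For the difference between lines they ran from 5 to 7 enzymes and 3652 to 6381 genes. A spread shared by all 8 libraries left 1 enzyme, 11 pathway genes and 1864 genes called in HOS, by its construction with the wider spread of 143B. Length and GC correction called 67 pathway genes in 143B. Over all genes, the split of higher and lower calls was 2361 and 2541 in 143B and 3762 and 4038 in HOS under median-ratio scaling, which brought the median change to -0.017 in 143B and -0.0079 in HOS. The signs of uncalled values turned for GLUD1 in 143B without NC replicate 1 (-0.13, within a leave-one-out range of -0.13 to 0.78), and for the differences between lines of GLUD1 (0.097 under median-ratio scaling, 0.051 without 143B NC replicate 2, and down to -0.85 without 143B NC replicate 1) and ALDH18A1 (-0.20 rescaled to a common sum, -0.061 without 143B sgNAT10 replicate 2 and 0.72 without 143B sgNAT10 replicate 1). NAT10 in HOS turned to -0.048 after length and GC correction. The cause of these changes was not tested. Replicate numbers pair the libraries by number alone: deviations of same-numbered libraries correlated at 0.59 in 143B and -0.099 in HOS, across genes. With the number as a replicate block, 7652 genes, 68 pathway genes and 6 enzymes were called in 143B, GOT2 being added (adjusted p = 0.0028), and 7 enzymes in HOS. Depth is unknown, which limits low values such as those of CTH in 143B, at under 2 FPKM.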
